A study of Mus musculus with 6 samples.

Results

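The metallothionein genes Mt1, Mt2 and Mt3 were followed in whole mouse retinas that were left untreated, exposed to bright light, or exposed to light and treated with the tetracycline antibiotic minocycline. The members were taken by gene symbol, which gave 3 of the 23420 genes in the count table. The table also lists Mt4, the family member of stratified epithelia, with 0 reads in all 6 libraries, and it was not counted as a member. Each group had 2 libraries. The control mice received no light exposure and no minocycline. The light group was exposed once, for 1 h, to white light of 10000 lux and its retinas were taken 4 days later. The light + minocycline group had the same exposure and in addition 45 mg/kg minocycline, injected into the peritoneum once a day over 4 days. The labels give CD1 as the strain of all 6 samples, whereas the study's methods name BALB/cJ, a stronger light and a schedule with additional early injections, so the strain, the light dose and the dosing are uncertain. No solvent injection is stated for the control or the light group, so an effect of injection and an effect of minocycline cannot be told apart. The methods describe adult animals of both sexes and give no age or sex for single libraries.

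Metallothioneins are small cytosolic proteins in which cysteine residues bind zinc and copper ions in clusters. Mt1 and Mt2 are made in most tissues, and their transcription is raised by metals through the zinc-sensing factor MTF1 and also by glucocorticoids, interleukin-6 family cytokines and oxidative stress. Mt3 is found mainly in the nervous system and responds less to metals. In the retina, metallothioneins are known mostly from Müller glia, the radial support cells, and from the pigment epithelium that lies against the photoreceptors.

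The libraries held between 15205930 and 22856922 reads in genes. Levels are given as counts per 1000000 reads (CPM), with library sizes scaled by the trimmed mean of M-values (TMM), and a count of 3 corresponded to 0.131 to 0.213 CPM. Control library 1 had 77778 reads of Xist and 11 reads over the Y-linked genes examined, against 25 to 188 and 6532 to 12858 reads in the other 5 libraries, so the control group mixed the sexes and the other groups did not. Both minocycline libraries carried signals of tissue outside the neural retina. Summed corneal epithelium markers reached 204 CPM in minocycline A and 292 CPM in minocycline B, against 5.21 to 20.4 CPM elsewhere, and markers of pigment epithelium and pigment cells reached 375 and 1490 CPM against 96.5 to 293 CPM. Lens markers were highest in light library 1, at 149 CPM against 0.853 to 15.5 CPM in the others. Summed rod markers, the defining genes of the main retinal cell type, were at 43900 to 105000 CPM in all libraries.

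The coding sequences of the 3 genes are given because the metal-binding cysteines are visible in them. The sequences were read from the GENCODE M21 transcripts on GRCm38 and run from the start to the stop codon, with every cysteine codon in capitals.
Mt1: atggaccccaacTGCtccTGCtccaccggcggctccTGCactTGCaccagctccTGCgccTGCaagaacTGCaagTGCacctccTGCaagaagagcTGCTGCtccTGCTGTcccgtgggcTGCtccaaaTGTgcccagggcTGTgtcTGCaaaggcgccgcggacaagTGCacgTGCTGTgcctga
Mt2: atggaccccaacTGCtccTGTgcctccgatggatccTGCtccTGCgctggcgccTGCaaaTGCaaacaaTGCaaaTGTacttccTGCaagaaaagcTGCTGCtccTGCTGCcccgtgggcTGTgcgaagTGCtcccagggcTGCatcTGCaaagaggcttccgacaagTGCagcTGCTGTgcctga
Mt3: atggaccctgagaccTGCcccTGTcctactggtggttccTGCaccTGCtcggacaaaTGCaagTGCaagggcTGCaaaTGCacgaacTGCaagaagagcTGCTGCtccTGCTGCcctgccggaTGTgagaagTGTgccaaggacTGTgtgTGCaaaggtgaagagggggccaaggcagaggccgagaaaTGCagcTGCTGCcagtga
Each of the 3 coding sequences held 20 cysteine codons. They made up 32.8% of the 61 codons of Mt1 and of Mt2, and 29.4% of the 68 codons of Mt3. Mt1 and Mt2 were identical at 148 of 186 aligned coding bases (79.6%), Mt1 and Mt3 at 137 (73.7%) and Mt2 and Mt3 at 140 (75.3%), with 21 gapped bases in each alignment to Mt3. The numbers of lysine codons were 7 in Mt1, 8 in Mt2 and 11 in Mt3. Despite this likeness, no stretch of 50 bases, the length of the reads, was shared with another gene on the same strand: 0 of 500 such windows in the Mt1 transcript, 0 of 462 in Mt2 and 0 of 487 in Mt3. Reads without errors could therefore be assigned to 1 of the 3 genes.

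The 3 genes are neighbours on the plus strand of chromosome 8 in GRCm38, each with 3 exons. Mt3 lies at chr8:94152607-94154146, Mt2 at chr8:94172664-94173568 and Mt1 at chr8:94179082-94180327, and the cluster spans 27721 bases in all. Mt2 and Mt1 are separated by 5513 bases, and Mt3 and Mt2 by 18517 bases. Mt4 lies before Mt3 at chr8:94137197-94139031. The antisense gene Gm45774, on the minus strand, covers 749 bases of Mt2, including 210 of its 462 windows of 50 bases (45.5%). It had no row in the count table, and since the use of strand in the counting was not stated, reads from it could not be told apart from those of Mt2.

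The stretches before the starts of the genes are given because the metal response elements bound by MTF1 lie in metallothionein promoters. The sequences are the 250 bases before the RefSeq start on the plus strand of GRCm38.p6, at chr8:94178839-94179088 for Mt1, chr8:94172368-94172617 for Mt2 and chr8:94152357-94152606 for Mt3. Capitals mark matches on either strand to the metal response element core, searched as TGCACNC and TGCGCNC.
Mt1: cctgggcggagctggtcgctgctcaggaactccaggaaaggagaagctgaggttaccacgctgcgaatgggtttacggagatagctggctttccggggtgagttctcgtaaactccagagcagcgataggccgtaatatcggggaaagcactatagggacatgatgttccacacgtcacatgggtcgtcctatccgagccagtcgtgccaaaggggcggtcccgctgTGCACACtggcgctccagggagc
Mt2: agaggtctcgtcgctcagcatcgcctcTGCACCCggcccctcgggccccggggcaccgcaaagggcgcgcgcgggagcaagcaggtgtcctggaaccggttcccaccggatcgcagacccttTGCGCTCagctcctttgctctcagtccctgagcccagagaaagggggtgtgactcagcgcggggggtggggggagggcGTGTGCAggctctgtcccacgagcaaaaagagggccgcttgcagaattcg
Mt3: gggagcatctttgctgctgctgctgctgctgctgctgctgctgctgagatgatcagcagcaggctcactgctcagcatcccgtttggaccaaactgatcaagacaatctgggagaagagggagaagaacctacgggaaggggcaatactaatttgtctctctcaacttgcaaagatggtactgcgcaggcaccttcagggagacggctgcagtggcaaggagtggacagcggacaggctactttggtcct
The printed stretches held 1 match in Mt1, 3 in Mt2 and 0 in Mt3. With the 50 bases after the start included, Mt1 had 3 matches, Mt2 had 4 and Mt3 had 1. Among 32817 promoter windows of the same 300 bases, 25.7% held at least 1 match, 1.97% at least 3 and 0.518% at least 4. The antioxidant response element core TGACNNNGC was found once in Mt2 and in neither of the other members, against 12.4% of all windows. No member window held CACGTG (7.1% of windows), the STAT-type motif TTCNNNGAA (8.3%) or TATAAA (13.6%). These are matches of letters near the RefSeq starts only, and the annotation lists further transcript starts for each of the 3 genes downstream. For Mt1 they lie at chr8:94179211 and chr8:94179241, beyond the end of the window. The bases directly before those starts were not searched, so a missing match holds for the window alone.

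In control retinas Mt1 was the most abundant metallothionein and Mt3 the least. Mt1 was at 64.8 and 61.0 CPM in control libraries 1 and 2, at 194 and 339 CPM in light libraries 1 and 2, and at 94.1 and 105 CPM in minocycline A and B. Mt2 was at 41.4 and 42.4 CPM in the controls, at 200 and 338 CPM after light, and at 70.4 and 80.5 CPM with minocycline. Mt3 was at 8.32 and 5.85 CPM in the controls, at 9.75 and 14.5 CPM after light, and at 9.18 and 5.56 CPM with minocycline. For Mt1 and Mt2 the groups stood in the order control, light + minocycline, light, with no overlap between any of them. For Mt3 the light libraries were highest, and the control and minocycline libraries overlapped.

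**Figure D1:**
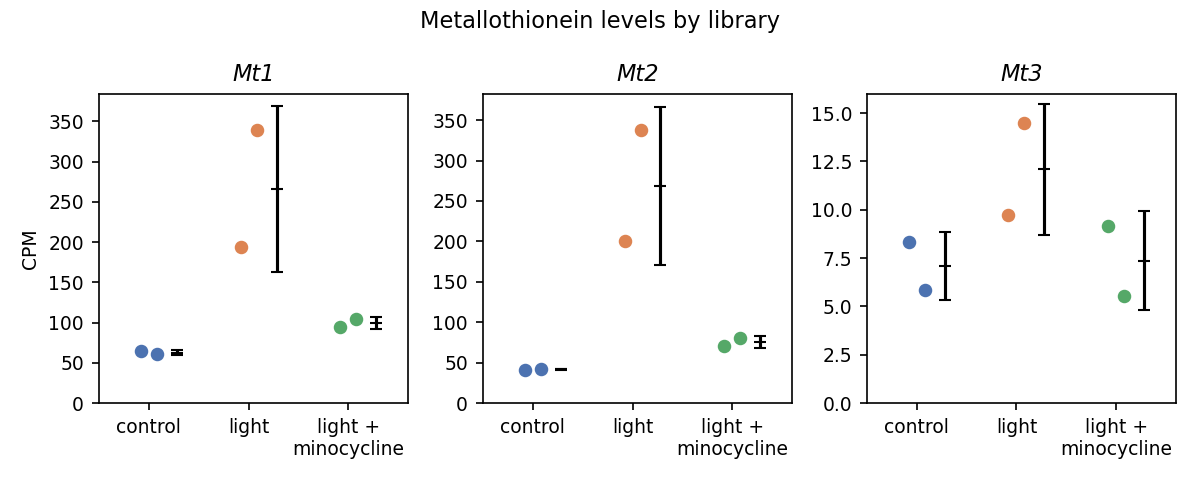
Levels of Mt1, Mt2 and Mt3 in CPM, with 1 point for each library and, beside the points, the mean and SD of the 2 libraries of each group. The vertical axes differ between genes. Light library 2 stood above light library 1 for every member, and the Mt1 and Mt2 points of the 3 groups did not overlap.

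The 2 light libraries differed by more than the libraries of the other groups in Mt1 and Mt2. The higher light library exceeded the lower 1.75-fold for Mt1 and 1.69-fold for Mt2, whereas the ratios were 1.06 and 1.02 in the controls and 1.11 and 1.14 with minocycline. For Mt3 the ratios were 1.42, 1.49 and 1.65 in the control, light and minocycline groups. The summed level of the 3 genes was 115 and 109 CPM in the controls, 403 and 691 CPM after light, and 174 and 191 CPM with minocycline.

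Levels of different genes were compared per length, as CPM per kilobase of the 549, 511 and 536 bases of the Mt1, Mt2 and Mt3 transcripts. In the controls Mt1 was at 115 ± 4.95 CPM per kilobase (SD, n = 2), Mt2 at 82.0 ± 1.32 and Mt3 at 13.2 ± 3.26, and no 2 genes overlapped. After light Mt2 was at 526 ± 191 CPM per kilobase, Mt1 at 485 ± 187 and Mt3 at 22.7 ± 6.30. Mt2 and Mt1 differed by less than the spread between the light libraries. Within each library Mt2 was nevertheless above Mt1, at 391 against 353 in light library 1 and 661 against 617 in light library 2. With minocycline the order was again Mt1 at 181 ± 13.7 CPM per kilobase, Mt2 at 148 ± 14.0 and Mt3 at 13.8 ± 4.78, without overlap. Mt3 contributed 7.26% and 5.35% of the summed metallothionein CPM in the controls, 2.42% and 2.10% after light, and 5.29% and 2.91% with minocycline.

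Light exposure was compared with the untreated retina to show how the damaged retina differed from the intact retina 4 days after the exposure. Mt1 and Mt2 rose and Mt3 did not pass the test. Mt2 rose from 41.9 ± 0.673 CPM (SD, n = 2) to 269 ± 97.6 CPM (n = 2), a fitted change of 6.43-fold. Its log2 change was 2.68 with a standard error of 0.25 (95% interval 2.12 to 3.25; edgeR quasi-likelihood test, adjusted p = 0.00346). Mt1 rose from 62.9 ± 2.72 to 266 ± 103 CPM, or 4.25-fold, a log2 change of 2.09 with a standard error of 0.26 (95% interval 1.49 to 2.68; adjusted p = 0.00899). Mt3 was at 7.08 ± 1.75 CPM in the controls and at 12.1 ± 3.38 CPM after light. Its log2 change was 0.78 with a standard error of 0.30 (95% interval 0.14 to 1.43; edgeR, adjusted p = 0.107).

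Thus 2 of 3 members were called higher, against 7.52% of the 14349 genes tested called higher and 3.8% called lower. At an unadjusted p under 0.05 all 3 members were higher, against 16.5% of genes. By the stricter rule that also asked for a log2 change of at least 2, which the study used as its cutoff, the same 2 members were called, against 2.89% of genes. By p-value Mt2 ranked 12 and Mt1 ranked 76 among all genes tested. A larger log2 increase than that of Mt2 was found for 2.25% of genes, than that of Mt1 for 3.29% and than that of Mt3 for 11.7%. The ratio of the lowest light library to the highest control library was 4.71 for Mt2, 2.99 for Mt1 and 1.17 for Mt3, and 30.6% of genes had both light libraries above both controls. Without control library 1 the adjusted p-values were 0.119 for Mt1 and 0.0841 for Mt2, and without control library 2 they were 0.171 and 0.125, at log2 changes of 2.04 to 2.69. Leaving out light library 1 brought Mt3 to a log2 change of 1.04 with an adjusted p of 0.0314, and leaving out light library 2 brought it to 0.47 with an adjusted p of 0.666, both with the spread of the controls alone.

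**Figure D2:**
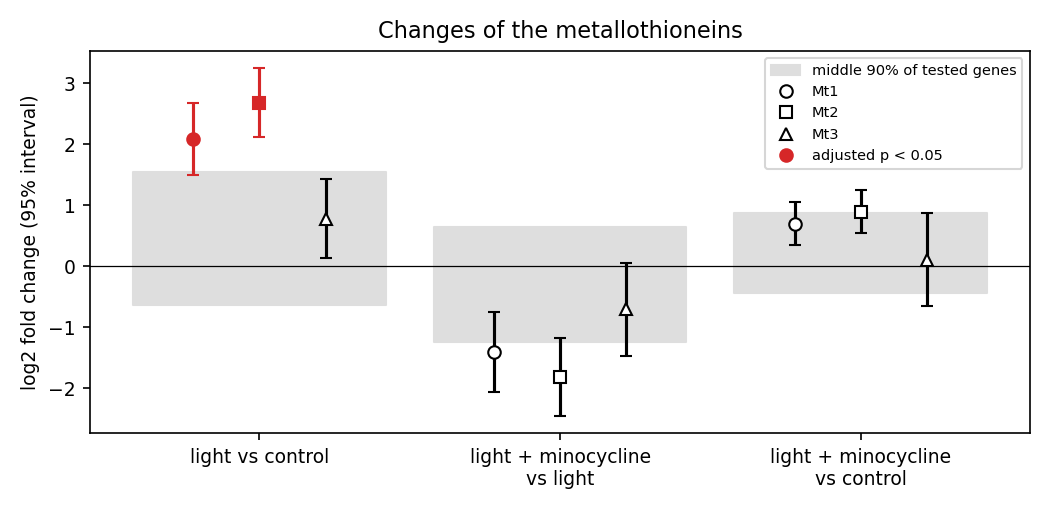
Fitted log2 fold changes of Mt1, Mt2 and Mt3 with 95% intervals in the 3 comparisons, over grey boxes from the 5th to the 95th percentile of all genes tested, with filled symbols for an adjusted p under 0.05. After light Mt1 (2.09) and Mt2 (2.68) lay above the 95th percentile of 1.54, and Mt3 (0.78) lay below it.

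Minocycline-treated retinas were compared with light-exposed retinas to ask whether the drug changed the response to light. Mt1 was at 99.5 ± 7.53 CPM with minocycline (SD, n = 2) and Mt2 at 75.5 ± 7.18 CPM, both below either light library, but none of the 3 members passed the test at an adjusted p of 0.05. The fitted log2 difference of Mt2 was -1.81 with a standard error of 0.26 (95% interval -2.45 to -1.18; edgeR, adjusted p = 0.0698), a level 3.52-fold lower than after light alone. For Mt1 the log2 difference was -1.40 with a standard error of 0.27 (95% interval -2.06 to -0.75; edgeR, adjusted p = 0.0736), a level 2.65-fold lower. Mt3 was at 7.37 ± 2.56 CPM, with a log2 difference of -0.70 and a standard error of 0.32 (95% interval -1.47 to 0.06; edgeR, adjusted p = 0.271).

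The count of 0 of 3 members stood against 0.0407% of 14750 genes called lower, that is 6 genes in all, and 0.0136% called higher. At an unadjusted p under 0.05, 2 of 3 members were lower and none higher, against 12.1% and 9.04% of genes. DESeq2 called Mt1 and Mt2 lower, with adjusted p-values of 3.85e-06 and 1.29e-10, and 4.71% of 15631 genes. In edgeR both passed without light library 1 (log2 differences -1.77 and -2.16, adjusted p = 0.00436 and 0.00218), where the spread comes from the minocycline libraries alone, and neither passed without any other library (adjusted p = 0.163 to 0.282 for Mt1 and 0.0524 to 0.229 for Mt2). Both also passed without the filter on low counts and with all 6 libraries in 1 fit. All 3 members had both minocycline libraries below both light libraries, as did 28.7% of all genes. In all, 2.79% of genes had a lower log2 difference than Mt2, and 4.07% a lower one than Mt1.

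Against untreated controls, Mt1 and Mt2 of both minocycline libraries stood at higher values, but no member was called at the adjusted threshold. Mt2 was 1.86-fold above the controls, a log2 difference of 0.89 with a standard error of 0.16 (95% interval 0.54 to 1.25; edgeR, adjusted p = 0.0966). Mt1 was 1.63-fold above, a log2 difference of 0.70 with a standard error of 0.15 (95% interval 0.35 to 1.06; edgeR, adjusted p = 0.17). Mt3 had a log2 difference of 0.11 with a standard error of 0.33 (95% interval -0.65 to 0.87; edgeR, adjusted p = 0.926). Thus 0 of 3 members were called, against 0.162% of 14181 genes called higher. At an unadjusted p under 0.05, 2 of 3 were higher, against 5.39% of genes, and DESeq2 called Mt2 alone of the members and 1.09% of 15007 genes. Both minocycline libraries lay above both controls for Mt1 and Mt2, as for 15.9% of genes. Without minocycline A, which left minocycline B with its higher pigment and stroma markers, the adjusted p was 0.0416 for Mt1 and 0.00182 for Mt2. Without minocycline B it was 0.186 for Mt1 and 0.0499 for Mt2. In both fits the spread comes from the 2 controls alone, which lay close together, and without either control no member passed (adjusted p = 0.34 to 0.65 for Mt2). The comparisons share libraries, so their values are not independent of each other. Measured by group means, the CPM above control that remained with minocycline was 18.0% of the excess after light for Mt1 and 14.8% for Mt2. These shares were 27.9% and 21.3% without light library 2, and 13.2% and 11.3% without light library 1.

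The balance of Mt2 and Mt1 was compared between the groups, each of 2 libraries. In the controls there were 583 and 602 reads of Mt2 against 912 and 866 of Mt1. After light there were 3417 and 7112 reads of Mt2 against 3319 and 7139 of Mt1, and with minocycline 1617 and 1520 against 2163 and 1978. Mt2 therefore made up 39.0% (95% exact binomial interval 36.5 to 41.5) and 41.0% (38.5 to 43.6) of the reads of this pair in the controls. Its share was 50.7% (49.5 to 51.9) and 49.9% (49.1 to 50.7) after light, and 42.8% (41.2 to 44.4) and 43.5% (41.8 to 45.1) with minocycline. The intervals cover counting error only, and those of the control and minocycline libraries overlapped in part. The shares of the 3 groups did not overlap, and unlike the levels the share was alike in the 2 light libraries. How many other gene pairs separate the groups in this way was not counted. The balance restates the changes of the 2 genes given above.

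The ratio of Mt2 to Mt1 within a library does not depend on the scaling of library sizes. On the log2 scale it was -0.59 ± 0.09 in the controls (SD, n = 2), 0.02 ± 0.03 after light and -0.40 ± 0.03 with minocycline. The differences were 0.60 for light against control, -0.42 for minocycline against light and 0.19 for minocycline against control, all larger than the spread within groups. An exact two-sided permutation test gave p = 0.333 for each, the smallest value that 2 against 2 libraries allow. The ratio per length was 0.687 and 0.747 in the controls, 1.11 and 1.07 after light, and 0.803 and 0.826 with minocycline.

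**Figure D3:**
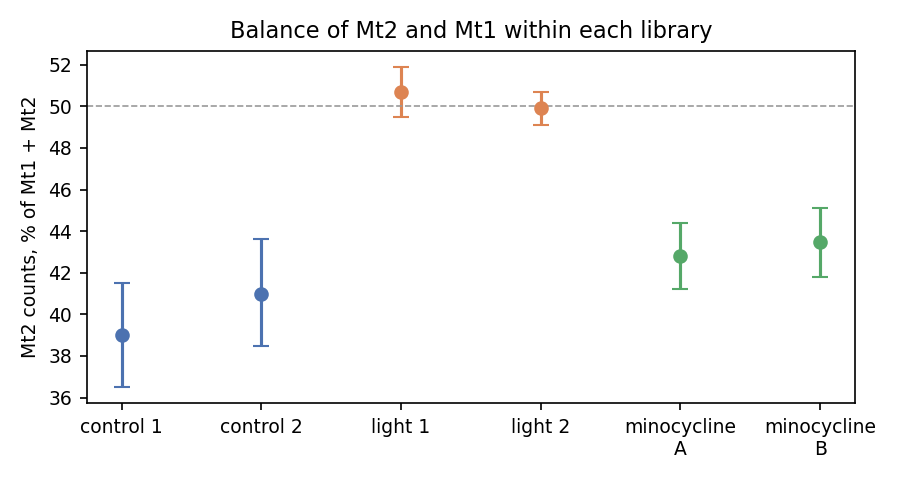
Share of Mt2 in the summed reads of Mt1 and Mt2, in percent for each library, with exact 95% binomial intervals, a dashed line at equal reads and an axis that does not start at 0. The share was 39.0% and 41.0% in the controls, 50.7% and 49.9% after light, and 42.8% and 43.5% with minocycline.

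The genes around the cluster were examined for a change shared along the chromosome. Of 6 tested neighbours none was called higher after light and 2 were called lower, against 7.52% and 3.8% of all genes. Their median log2 change was -0.20 against 0 over all genes. Bbs2, part of a complex that carries membrane proteins into cilia, was at 236 and 271 CPM in the controls and at 180 and 163 CPM after light (log2 change -0.56, adjusted p = 0.0416). Herpud1, a protein of the endoplasmic reticulum stress response, was at 55.9 and 54.9 CPM in the controls. It was at 38.0 and 39.3 CPM after light (-0.51, edgeR, adjusted p = 0.0448) and at 77.8 and 74.2 CPM with minocycline. After light, Bbs2 and Herpud1 kept their direction but lost the call when libraries were scaled by total reads, with log2 changes of -0.33 and -0.28. Nup93, a nuclear pore protein encoded next to Mt1, was at 33.1 and 34.3 CPM in the controls, at 26.2 and 27.7 CPM after light and at 26.8 and 28.3 CPM with minocycline. None of the 6 neighbours was called between the minocycline and light groups by edgeR, where DESeq2 called 1 of them higher. At an unadjusted p under 0.05 there was 1, Herpud1, which was higher (log2 difference 0.99, edgeR, adjusted p = 0.0638).

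**Figure D4:**
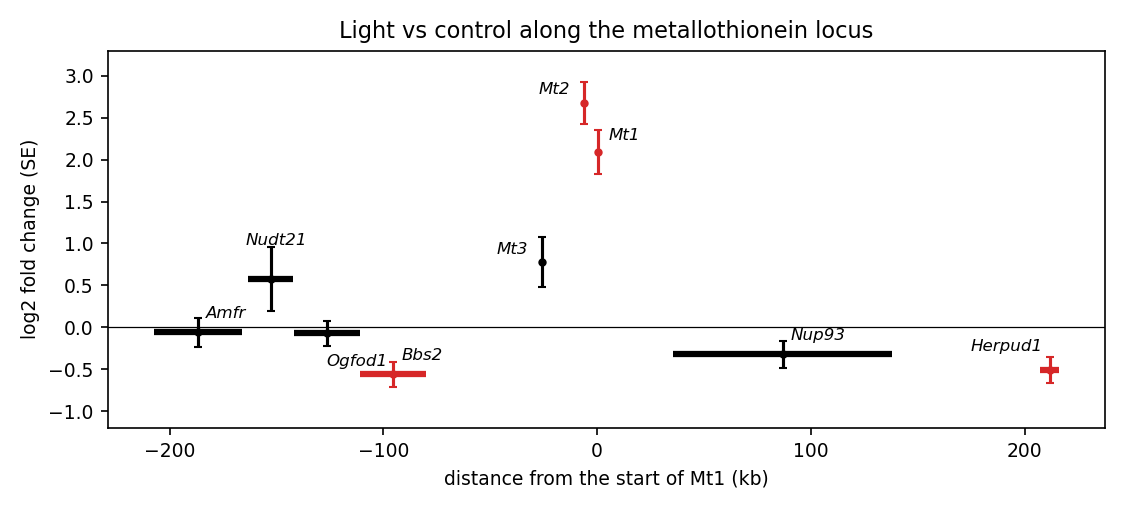
Log2 fold change of light against control for the metallothioneins and the neighbouring genes, placed by distance in kilobases from the start of Mt1, with vertical bars for the standard error, horizontal bars for the extent of each gene and red for an adjusted p under 0.05. Mt1 (2.09) and Mt2 (2.68) stood above the neighbours, whose values lay between -0.56 and 0.58.

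Of the other genes of zinc and copper handling, 1 was called higher after light, where 7.52% of all genes were. Of 8 tested genes of the Slc30 family, listed as zinc exporters, 0 were called in either direction after light by edgeR. At an unadjusted p under 0.05 and by DESeq2 there were also 0, and the median log2 change was -0.16. Slc30a1, the exporter of the plasma membrane and like Mt1 and Mt2 a known target of MTF1, was at 57.4 and 52.7 CPM in the controls, 54.4 and 44.3 CPM after light, and 54.0 and 57.1 CPM with minocycline. Its log2 change after light was -0.15 (edgeR, adjusted p = 0.559). Slc30a1 was named for this role after its values were seen. The most abundant gene of this list, Slc30a9, was at 191 and 157 CPM in the controls and at 159 and 147 CPM after light.

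Of 13 tested zinc importers 1 rose after light, and under total-read scaling Slc39a11 was called as well (log2 change 1.02, adjusted p = 0.0412; named after its values were seen). Slc39a1, a zinc importer of the cell surface, was at 10.9 and 10.8 CPM in the controls, 20 and 28.6 CPM after light, and 16.7 and 13.6 CPM with minocycline (log2 change after light 1.16, edgeR, adjusted p = 0.0154). None of the 10 copper transporters and chaperones was called after light (1 lower at an unadjusted p under 0.05, 0 by DESeq2), with a median log2 change of -0.16. Between the minocycline and light groups none of these exporters, importers or copper genes was called by edgeR. There 2 importers were higher and 1 lower at an unadjusted p under 0.05, DESeq2 called 1 importer higher, and the exporters and copper genes had 0 by either count.

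Among 6 genes for factors that are known to act on metallothionein genes, 1 was called lower after light and 0 higher. Mtf1, the zinc-sensing activator, was at 49.5 and 44.5 CPM in the controls and at 53.0 and 41.8 CPM after light (log2 change 0.02, edgeR, adjusted p = 0.96). The glucocorticoid receptor gene Nr3c1 fell from 194 and 139 CPM to 102 and 94.2 CPM (-0.76, adjusted p = 0.0245), and lost the call under total-read scaling. Stat3, which carries the signal of interleukin-6 family cytokines, was at 76.1 and 163 CPM in the controls, so that its value after light of 181 and 193 CPM was close to that of control library 2 (0.65, adjusted p = 0.329). Nfe2l2, which encodes the oxidative stress factor NRF2, was at 20.1 and 25.9 CPM in the controls and at 33.5 and 35.3 CPM after light (0.58, edgeR, adjusted p = 0.0611). Under total-read scaling it was called higher (0.82, adjusted p = 0.0268), so that the count turned to 1 higher and 0 lower. Nfe2l2 was named after its values were seen. These are transcript levels and give no measure of the activity of the factors.

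Of 11 tested genes of interleukin-6 family signalling 4 rose and 1 fell after light, with a median log2 change of 0.44. Lif, a ligand of the family, was at 3.06 and 2.89 CPM in the controls, 5.49 and 9.92 CPM after light and 1.70 and 2.01 CPM with minocycline. Osmr, the receptor subunit for oncostatin M, was at 6.11 and 12.8 CPM, then 25.9 and 41.7 CPM after light and 10.3 and 6.73 CPM with minocycline. Both were called after light (log2 changes 1.38 and 1.84, edgeR, adjusted p = 0.0352 and 0.0411). The receptor Il6ra (2.74) and Bcl3 (3.61), a transcriptional cofactor, were called as well, from low control levels. The controls had 0.569 and 0.352 CPM of Il6ra and 0.498 and 0.352 CPM of Bcl3. Lifr, the receptor for Lif, fell by 0.65 on the log2 scale (adjusted p = 0.0315) and lost the call under total-read scaling. Osmr was named after its values were seen.

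Of 10 tested genes known to respond to glucocorticoids 3 rose and 1 fell after light, with a median log2 change of -0.04. Zbtb16, a zinc finger transcription factor, rose (log2 change 2.15, edgeR, adjusted p = 0.0086). So did Pdk4 (2.29), a mitochondrial kinase, and Fkbp5 (0.86), a chaperone partner of the glucocorticoid receptor. Pdk4 was low in every library, at 0.213 and 0.423 CPM in the controls and 1.29 and 1.85 CPM after light. The kinase gene Sgk1 fell by 0.74 and lost the call under total-read scaling, where Tsc22d3, an anti-inflammatory leucine zipper gene, gained one (0.64, adjusted p = 0.0483). DESeq2 called 2 of this list higher and 1 lower. Tsc22d3 was named after its values were seen. Of 10 targets of the oxidative stress factor NRF2 3 rose and none fell, with a median of 0.50. They were the cystine importer Slc7a11 (0.93), the peroxiredoxin Prdx1 (0.85) and the heme oxygenase Hmox1 (0.98). With DESeq2 size factors Hmox1 kept its log2 change of 0.98 at an adjusted p of 0.0557, and under total-read scaling 4 targets were called, with Txnrd1 (0.70) added.

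Between the minocycline and light groups, edgeR called none of the genes of the interleukin-6 family, glucocorticoid or NRF2 lists, nor any of the 6 factors. At an unadjusted p under 0.05 there were 0 higher and 5 lower in the interleukin-6 family list, 2 and 2 in the glucocorticoid list, 1 and 3 in the NRF2 list and 1 and 1 among the factors. DESeq2 called 0 and 4, 2 and 2, 0 and 1, and 1 and 1. The median log2 differences were -0.21, 0.17 and -0.21 for the 3 lists and 0.01 for the factors, against -1.40 for the 3 metallothioneins.

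**Figure D5:**
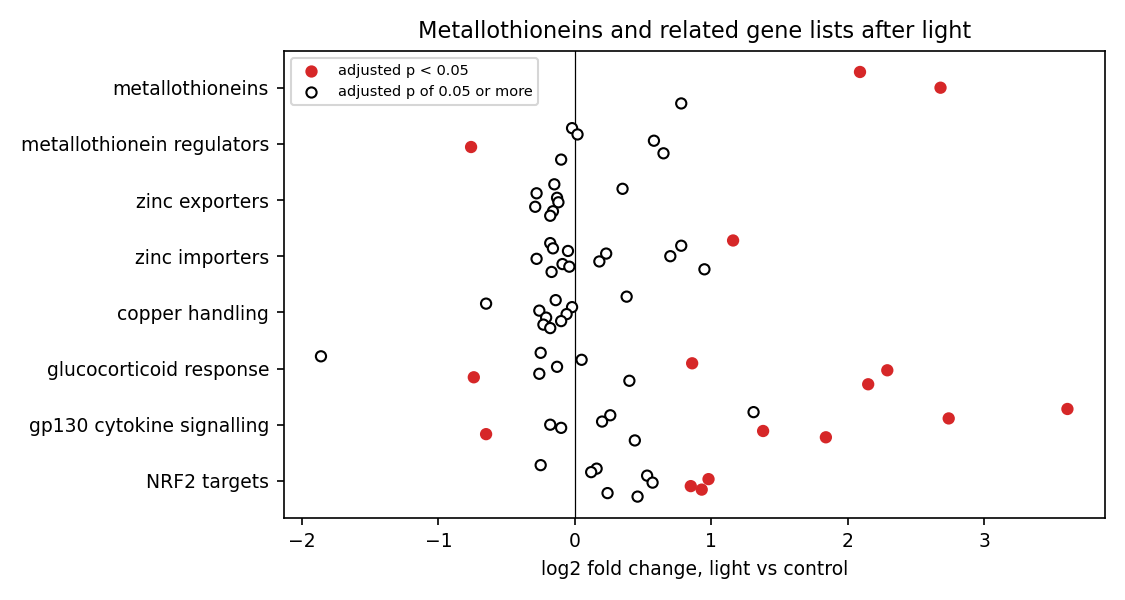
Log2 fold changes of light against control for the genes of each list, with 1 point per gene tested, filled for an adjusted p under 0.05 and open otherwise. The medians were 2.09 for the 3 metallothioneins, -0.16 for the zinc exporters, -0.16 for the copper genes, 0.44 for interleukin-6 family (gp130) signalling and 0.50 for NRF2 targets.

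Markers of several retinal cell types differed between the libraries beside the metallothionein levels. Summed CPM of 10 Müller glia markers was 3730 and 2570 in the controls, 4470 and 5690 after light, and 4620 and 3590 with minocycline. Summed rod markers were at 105000 and 82900 CPM, then 61800 and 43900 CPM after light, and 89700 and 97100 CPM with minocycline. Microglia and macrophage markers were at 48.6 and 52.5 CPM in the controls, at 278 and 867 CPM after light, and at 80.2 and 46.6 CPM with minocycline. Light library 2 had the higher Mt1, Mt2 and Mt3 of the light libraries. It also had the lower rod sum and the higher Müller glia and microglia sums. Within the Müller sum Apoe differed most between the light libraries, at 609 and 1500 CPM. Glul (1420 and 1360 CPM) and Car2 (503 and 494 CPM) were slightly lower in light library 2, and the other Müller markers were higher. In bulk RNA, fewer cells of a type and less RNA per cell cannot be told apart. The part of the cell composition in the metallothionein differences was not tested.

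Of 10 Müller glia markers 3 were called higher after light, the glutamate transporter Slc1a3 (log2 change 1.13), the extracellular chaperone Clu (0.89) and the lipid carrier Apoe (2.48), with a median over the list of 0.80. Of 12 genes of reactive glia 9 were called higher, with a median of 1.91. The acute-phase gene Serpina3n was at 4.41 and 3.52 CPM in the controls, 51.8 and 63.9 CPM after light and 13.9 and 11.2 CPM with minocycline. The metalloreductase Steap4 was at 0.427 and 0.493 CPM, 26.5 and 20.3 CPM, and 2.00 and 1.64 CPM. Both were, with the iron-binding protein gene Lcn2 and the protease inhibitor gene Timp1, the 4 reactive glia genes called lower by edgeR with minocycline than after light, with log2 differences of -2.19 for Serpina3n and -3.66 for Steap4 (edgeR, adjusted p = 0.0307 and 0.0239). At an unadjusted p under 0.05, 12 of 12 were lower, and DESeq2 called 11 lower. Under total-read scaling the log2 differences of these 4 were -3.90 to -2.36, at an adjusted p of 0.0986, and with DESeq2 size factors Lcn2 and Timp1 lost the call at unchanged differences. Of 10 microglia and macrophage markers 5 were called higher and of 10 rod markers 1, the rod transcription factor Nrl, was called lower after light, with medians of 3.57 and -0.84. At an unadjusted p under 0.05, and also by DESeq2, 10 of 10 microglia and macrophage markers were higher and 9 of 10 rod markers lower. Under total-read scaling edgeR called all 10 microglia and macrophage markers and no rod marker. Of the Müller glia markers DESeq2 called 5 higher, and edgeR with total reads 6.

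Markers of tissue around the neural retina also differed in level between the light and minocycline libraries, and few were called by edgeR. Corneal epithelium markers had a median log2 difference of 4.43 between minocycline and light, markers of pigment epithelium and pigment cells of 4.13 and smooth muscle and stroma markers of 4.27. Called higher were 1 of 9, 0 of 9 and 0 of 10 of them by edgeR (8, 5 and 9 at an unadjusted p under 0.05), and 7, 5 and 9 by DESeq2. The 4 lens markers tested had a median of -3.16, with none called by either tool, the high lens signal being that of light library 1. Within the pigment list the melanin synthesis and melanosome genes Tyr, Tyrp1, Dct, Pmel and Mlana had log2 differences of 4.13 to 5.57. The genes of the visual cycle and retinal transport that mark the pigment epithelium did not share them, with 0.00 for Rpe65, 0.31 for Rdh5, -0.24 for Lrat and -0.70 for Ttr. Rpe65 was at 19.5 and 68.0 CPM in the controls, 21.3 and 29.8 CPM after light, and 18.7 and 31.8 CPM with minocycline. Control library 2 thus had the highest level of this pigment epithelium gene. These genes were named after their values were seen. Summed smooth muscle and stroma markers were at 95.2 and 446 CPM with minocycline and at 15.1 to 33.2 CPM elsewhere. Vessel markers were at 274 and 203 CPM with minocycline, 272 and 350 CPM after light and 205 and 178 CPM in the controls. Mt1 and Mt2 were lower in the minocycline libraries than after light, while the medians of the corneal, pigment and stroma lists were higher there and that of the lens list was lower. Their part in the levels of Mt1 and Mt2 above control was not tested.

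The levels were also set against the summed Müller glia markers, a ratio chosen after the values were seen. For each 1000 CPM of these markers there were 17.4 and 23.7 CPM of Mt1 in the controls, 43.4 and 59.6 CPM after light, and 20.4 and 29.2 CPM with minocycline. For Mt2 the values were 11.1 and 16.5 CPM, 44.7 and 59.4 CPM, and 15.2 and 22.4 CPM. For Mt3 they were 2.23 and 2.27 CPM in the controls, 2.18 and 2.55 CPM after light, and 1.99 and 1.55 CPM with minocycline. Per Müller marker level, the light libraries thus remained above all others for Mt1 and Mt2, the control and minocycline libraries overlapped, and Mt3 of the controls lay within the range of the light libraries. The marker sum holds Clu, Apoe and Slc1a3, which rose after light. Against Glul alone, a Müller glia enzyme that was not called after light, Mt3 was at 5.63 and 6.24 CPM per 1000 CPM in the controls, 6.86 and 10.7 after light, and 5.30 and 4.05 with minocycline, so that the control and light libraries did not overlap. Mt1 was at 43.9 and 65.1, 136 and 249, and 54.3 and 76.2, and Mt2 at 28.1 and 45.3, 140 and 248, and 40.6 and 58.6. On both scales the light libraries were highest for Mt1 and Mt2.

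The genes whose pattern over the 6 libraries was nearest to each member were found by the root mean square difference of log2 CPM relative to the control mean among 11278 genes of sufficient level. For Mt1 they were Ifnar2 (difference 0.074), Trim12c (0.145), Vwa5a (0.147), Msn (0.166) and Ctsl (0.171). Ifnar2, a subunit of the type I interferon receptor, was at 2.42 and 2.46 CPM in the controls, 8 and 14.3 CPM after light and 4.05 and 4.34 CPM with minocycline. Ctsl, the lysosomal protease cathepsin L, was at 122 and 89.8 CPM, 272 and 507 CPM, and 173 and 165 CPM. For Mt2 they were the interferon-induced GTPases Gbp2 (0.195), Gbp1 (0.202) and Gbp3 (0.203), followed by Clec2d (0.208) and Rassf2 (0.234). Gbp2 was at 3.06 and 2.61 CPM in the controls, 10.8 and 20.2 CPM after light and 4.79 and 6.20 CPM with minocycline. For Mt3 they were Rassf4 (0.074), Cib2 (0.079), Specc1 (0.086), Tnnt1 (0.102) and Ndnf (0.105). The difference between Mt1 and Mt2 was 0.366. Of the 11278 genes, 83 were nearer to Mt1 than Mt2 was, and 26 were nearer to Mt2 than Mt1 was. Mt3 stood at 0.862 from Mt1 and at 1.213 from Mt2. All genes in this measure share the same 6 libraries, so likeness of pattern follows depth and composition as well and is given as a description.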

How the data were processed

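RNA from mouse retinas was sequenced from 2 control, 2 light and 2 light + minocycline libraries. Per the study's methods, stranded mRNA libraries were read in single runs of 50 bases, aligned to mm10 with STAR and counted. The gene annotation and the use of strand in counting were not given in the sources used here. The authors deposited 1 table of whole-number counts per gene. A description of them as normalized in the study is at odds with the unequal library totals, and the values were used as raw counts. The 2 light + minocycline columns have identical headers without distinct replicate numbers and are named A and B.

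The members and all gene lists were chosen with earlier results of these data known. Counts were tested with edgeR 4.0.16 in R 4.3.3 (TMM, filterByExpr, robust quasi-likelihood F-test, each pair of groups fitted alone) with Benjamini-Hochberg adjustment over all genes tested and a threshold of 0.05. DESeq2 1.42.0, other scalings, filters, a fit of all 6 libraries, a replicate block and leaving out each library were alternatives. Named list genes were up to 4 per list, by smallest adjusted p and then mean CPM, with exceptions stated, and the neighbours by position. Genes of like pattern were sought among those with a mean of at least 5 CPM that were tested in every comparison, with a prior count of 2. The statistics were tested on simulated data. The study's methods call the libraries of a group biological replicates, and do not say how many animals each holds. A fit without 1 library takes the spread from the other group and assumes that the lone library varies alike. Sequences came from GENCODE M21 and RefSeq, which matched 3 of 3 members.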

Additional observations from a re-analysis of the deposited data

How the results depend on the processing

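For light against control, Mt1 and Mt2 stayed higher under every alternative run. Their calls were lost only without control library 1 (log2 change 2.12, adjusted p = 0.119 for Mt1; 2.66, 0.0841 for Mt2) or control library 2 (2.04, 0.171; 2.69, 0.125). Leaving out single libraries gave ranges of 1.63 to 2.43 for Mt1, 2.25 to 3.01 for Mt2 and 0.47 to 1.05 for Mt3. Mt3 passed only without light library 1 (1.04, adjusted p = 0.0314). The other settings gave 2.03 to 2.33, 2.64 to 2.93 and 0.77 to 1.03. With a replicate block the values were 2.03, 2.64 and 0.77 (adjusted p = 2.06e-14, 2.95e-23 and 0.0665), with 1668 genes called higher and 857 lower. Deviations of same-numbered control and light libraries did not go together (r = -0.01 across genes). This is 1 correlation, and the control libraries also differ in sex markers, so it cannot decide whether same-numbered libraries shared a batch. No paired analysis was possible because of the identical column headers wherever minocycline libraries entered.

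For minocycline against light, Mt1 and Mt2 stayed lower throughout and passed with DESeq2 (-1.40, adjusted p = 3.85e-06; -1.81, 1.29e-10), without a filter on low counts (-1.40, 0.042; -1.81, 0.0175), with all 6 libraries in 1 fit (-1.42, 0.0355; -1.83, 0.0244) and without light library 1 (-1.77, 0.00436; -2.16, 0.00218). Leaving out single libraries gave -1.77 to -0.97 for Mt1, -2.16 to -1.41 for Mt2 and -1.09 to -0.40 for Mt3. For minocycline against control, Mt2 passed with DESeq2 (0.87, adjusted p = 0.00466), Mt1 and Mt2 without a filter (0.69, 0.0466; 0.87, 0.00391) and without minocycline A (0.77, 0.0416; 0.98, 0.00182), and Mt2 without minocycline B (0.75, 0.0499). The ranges were 0.59 to 0.77, 0.75 to 0.98 and -0.31 to 0.38. Mt3 turned negative without control library 2 (-0.12) and without minocycline A (-0.31). The cause of these changes was not tested.

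Of all genes, 1079 were called higher and 545 lower after light, and 1930 and 133 with total-read scaling, which moved the median log2 change from 0 to 0.24 and the share of higher calls from 66.4% to 93.6%. Without a filter 829 were lower, in 1 fit 351 were lower, and leaving out libraries gave 4 to 1683 higher and 0 to 462 lower, the lowest counts without control library 1. For minocycline against light, 2 and 6 genes were called, 464 and 737 by DESeq2, 247 and 485 without a filter, 135 and 353 in 1 fit, 5 and 10 without robust fitting, 0 and 2 with DESeq2 size factors 0 and 0 with total reads, and 66 and 706 without light library 1. Leaving out single libraries gave 6 to 188 higher and 5 to 706 lower. For minocycline against control, 23 and 0 were called, 163 and 4 by DESeq2, 183 and 4 without a filter, 3 and 0 with a minimum of 10 counts, 0 and 0 in 1 fit, 407 and 3 without minocycline A and 438 and 42 without minocycline B. Leaving out single libraries gave 3 to 438 higher and 0 to 42 lower.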
